A study of Mus with 15 samples.

Results

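RNA of the abdominal aorta was compared between 5 mice that received angiotensin II (AngII) together with Qingda granule (QDG) and 5 Control mice that received neither, 10 of the 15 mice whose values were analysed. All were wild-type C57BL/6 mice, which the methods describe as male and between 8 and 10 weeks old. AngII+QDG mice were infused with AngII at 500 ng/kg/min and given QDG by gavage at 1.145 g/kg/day, while Control mice were infused with saline and, by the methods, gavaged with water, in both cases for 14 days. The other 5 mice had AngII alone and are shown beside the comparison without a test. The groups differ in AngII, in QDG and in the transcript list on which they were quantified, which cannot be told apart in this comparison, and QDG without AngII was not analysed here.

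AngII is the effector peptide of the renin-angiotensin system. It acts on vascular smooth muscle chiefly through the AT1 receptor, a G protein-coupled receptor that releases calcium from the sarcoplasmic reticulum and activates ERK, and chronic infusion is a standard way to raise blood pressure in mice. QDG is a granule made from 4 herbs that contains baicalin among other compounds. The abdominal aorta is mostly smooth muscle with an endothelial lining and an outer layer of fibroblasts, and dissected tissue can carry fat, nerve and blood with it. In such bulk tissue, fewer cells of a type and less RNA per cell cannot be told apart.

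Each library came from 1 mouse and has 1 value per transcript in FPKM, the number of fragments divided by the length of the transcript and by the mapped fragments of the library. Transcripts carry identifiers without gene names, and they were not paired with genes here. Neither the tissue label nor any pathway was therefore checked against its genes, and no more than 2 identifiers are given in each direction. Summed FPKM ran from 454587 to 540022 over the 10 mice. The depth of each mouse relative to the first Control mouse, estimated from the commonest ratio of low values, ran from 0.959 to 1.04, and absolute depth is unknown. Over 9 such measures of a library, the smallest p between the groups was 0.127 (two-sided exact permutation test, n = 5 and 5, adjusted p = 0.5 over the 9). The smallest p this design allows is 0.00794, which for 1 measure alone could not pass an adjustment over 9, so that a difference in these measures is not excluded. Nothing in the labels says that any of the mice shared a cage, litter or processing day.

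Control and AngII+QDG mice were not quantified on the same transcript list. The Control list held 126719 transcripts, of which 110082 carried an Ensembl identifier, and the AngII+QDG list held 125443, of which 110411 did. Ensembl identifiers present in both numbered 108027. Of these, 21250 were at or above 1 FPKM in 5 or more of the 10 mice and were tested, while 4819 were listed at 0 in all 10. These 108027 transcripts held from 87.0% to 88.5% of the summed FPKM of Control mice and from 87.5% to 89.5% of that of AngII+QDG mice, ranges that overlap. Most of the remainder lay in transcripts that StringTie had reconstructed, 11.4% to 12.9% in Control mice and 10.4% to 12.5% in AngII+QDG mice. Ensembl transcripts of a single list were few, 2055 for Control and 2384 for AngII+QDG. Only 14 and 19 of them reached an FPKM of 1 in at least 3 of the 5 mice concerned. AngII mice shared the list of the Control mice, so the list changes exactly where QDG was given, and the 2 cannot be told apart.

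To find which transcripts differed, limma was fitted to log2(FPKM + 1) in the 10 mice, and differences below are AngII+QDG minus Control on that scale. The added 1 makes differences of low transcripts too small. With the study's thresholds for differentially expressed transcripts (DETs), at least 2-fold with an unadjusted p below 0.05, here applied to the limma fit, 442 transcripts were higher in AngII+QDG mice (2.08% of those tested) and 332 were lower (1.56%). After Benjamini-Hochberg adjustment over all 21250, 220 transcripts rose (1.04%) and 164 fell (0.772%) at an adjusted p below 0.05. Of these, 193 rose and 129 fell by at least 2-fold, while 27 that rose and 35 that fell changed by less. An unadjusted p below 0.05 was found for 1909 of the 21250 transcripts, 992 of them higher and 917 lower. Where nothing differs, a share of about 0.05 of all transcripts would reach such a p, so chance alone would give many of these. The distribution as a whole was centred near 0, with a median log2 difference of 0.02 and 5th and 95th percentiles of -0.65 and 0.78.

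**Figure D1:**
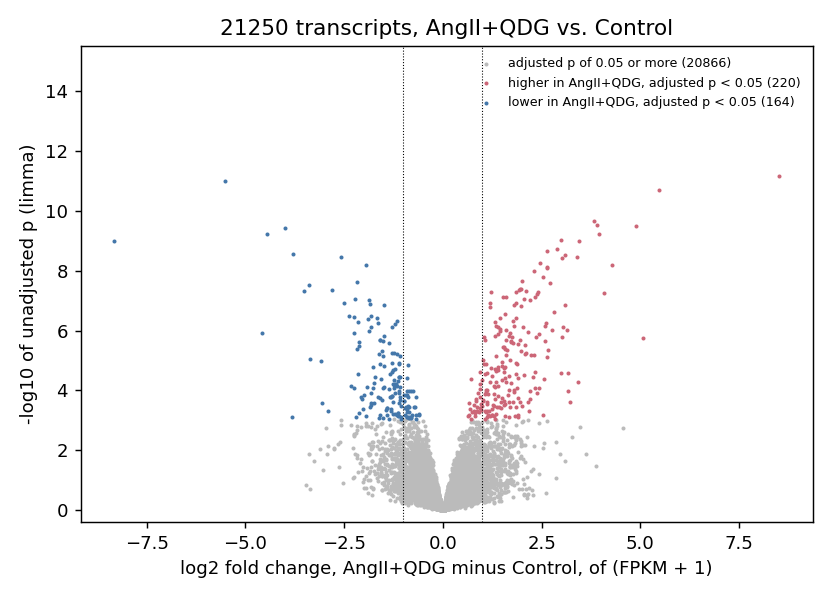
Each of 21250 transcripts by its difference (x axis, log2 of FPKM + 1, AngII+QDG minus Control) and its unadjusted p from limma (y axis, -log10), with dotted lines at a 2-fold change. The 220 transcripts that rose (red) and the 164 that fell (blue) at an adjusted p below 0.05 lie on both sides, with single transcripts beyond 8 on the log2 scale in each direction.

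The 5 values of AngII+QDG mice lay wholly above those of the 5 Control mice in 366 transcripts (1.72% of those tested) and wholly below in 323 (1.52%). Of the 220 transcripts that rose, 214 did not overlap between the groups, and of the 164 that fell, 159 did not. The filter takes part in such counts, because a transcript can pass it through the group in which it is high. In 90 transcripts every AngII+QDG mouse and no Control mouse reached an FPKM of 1, and 84 of these were among the 220. In 62 transcripts the reverse held, and 55 of these were among the 164. Among the 12624 transcripts at or above 1 FPKM in all 10 mice, 67 rose and 52 fell, and when these alone were fitted 60 rose and 46 fell. Either way the shares are smaller than the 1.04% that rose and the 0.772% that fell over all 21250. Leaving out any 1 AngII+QDG mouse and filtering again lowered the number that rose to between 79 and 105, and leaving out any 1 Control mouse lowered the number that fell to between 62 and 86. On the transcripts that had passed with all 10 mice, leaving out 1 mouse gave from 168 to 207 that rose and from 117 to 149 that fell.

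The transcripts with the smallest p in each direction, among those with a fold change of at least 2 and no overlap, were ENSMUST00000151137 and ENSMUST00000048432, which rose, and ENSMUST00000044011 and ENSMUST00000140838, which fell. All 4 passed the filter only through the group in which they were high and were picked for their p, so the p-values given with them restate that choice. Their log2 differences also depend on the added 1. The FPKM of ENSMUST00000151137 was 0.0346, 0.0543, 0.0350, 0.0501 and 0.0509 in the Control mice and 466, 663, 397, 225 and 297 in the AngII+QDG mice. Control mice thus stood near 0, and even the lowest AngII+QDG mouse was far above them. The mean was 0.0450 ± 0.00942 (SD, n = 5) against 410 ± 169 (SD, n = 5), a log2 difference of 8.52 (standard error 0.25, limma adjusted p = 1.07e-07), or 11.37 when 0.1 was added in place of 1. In AngII mice it stayed between 0.0336 and 0.0562, within or next to the Control range.

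ENSMUST00000048432 was between 0.00359 and 0.00388 FPKM in the Control mice, values near 0 that differ by 1.08-fold. They ran opposite to the relative depth of the mice, from 0.00388 at a depth of 0.959 to 0.00359 at 1.04. Their spread is therefore no measure of how the transcript varied between Control mice. In the AngII+QDG mice it was 52.2, 49.7, 55.2, 32.4 and 32.7. The log2 difference was 5.46 (standard error 0.18, limma adjusted p = 1.49e-07), or 8.71 with 0.1 added. Of the AngII mice, 4 lay between 0.00357 and 0.00402 and the other was at 1.88, still below every AngII+QDG mouse.

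ENSMUST00000044011 went the other way. It was 59.6, 56.8, 55.4, 48.7 and 40.7 FPKM in the Control mice and 0.578, 0.0975, 0.0250, 0 and 0.109 in the AngII+QDG mice. Every Control mouse was above 40, and the highest AngII+QDG mouse was below 1. The mean fell from 52.3 ± 7.60 (SD, n = 5) to 0.162 ± 0.237 (SD, n = 5), a log2 difference of -5.53 (standard error 0.17, limma adjusted p = 1.07e-07). The AngII mice, between 46.7 and 64.3, overlapped the Control mice.

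ENSMUST00000140838 was 25.1, 24.2, 25.3, 14.9 and 27.9 FPKM in the Control mice and 0.416, 0.526, 0.472, 0.422 and 0.661 in the AngII+QDG mice. The lowest Control mouse was the fourth, and it was still far above all AngII+QDG mice. The mean was 23.5 ± 4.97 (SD, n = 5) against 0.499 ± 0.10 (SD, n = 5), a log2 difference of -4.00 (standard error 0.17, limma adjusted p = 1.16e-06). AngII mice lay between 13.8 and 28.3.

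**Figure D2:**
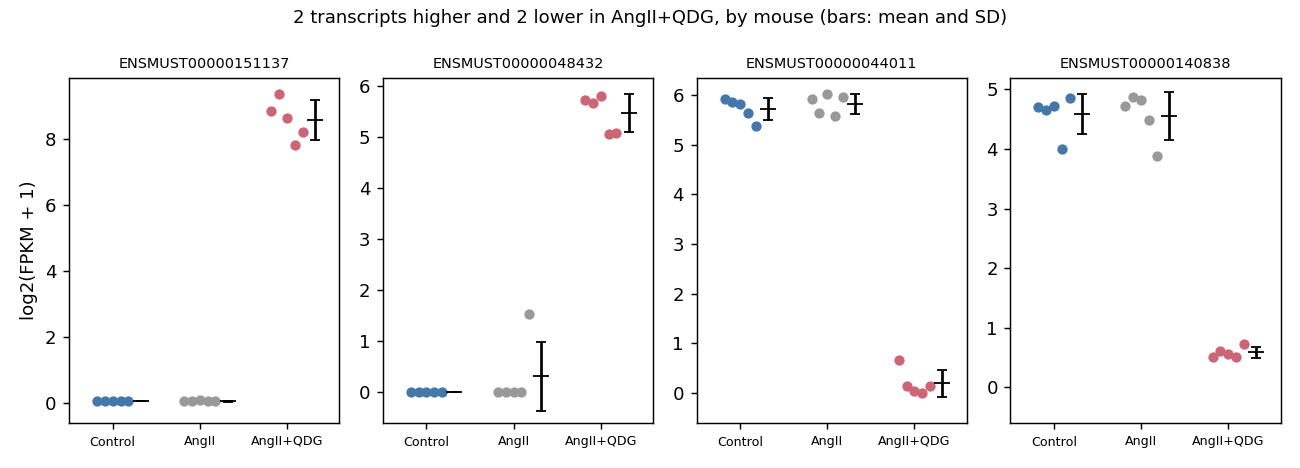
Level of 4 transcripts in each of 15 mice (y axis, log2 of FPKM + 1; points are mice, bars the mean and SD of 5 mice; the scale differs between panels). In all 4 panels the AngII+QDG mice (red) lie apart from the Control mice (blue), and the AngII mice (grey) lie with the latter, save 1 mouse at 1.88 FPKM in the panel of ENSMUST00000048432.

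The levels of the changed transcripts were then set beside those of the AngII mice, which did not enter the fit. Across the 220 transcripts that rose, the median of the group mean of log2(FPKM + 1) was 0.84 in Control, 1.01 in AngII and 2.66 in AngII+QDG mice. Across the 164 that fell it was 2.53, 2.39 and 0.89. By its mean level, AngII lay nearer to Control in 201 of the 220 and nearer to AngII+QDG in the other 19, and of the 164 it lay nearer to Control in 153 and nearer to AngII+QDG in 11. There were 21 transcripts that rose by at least 8-fold, with median levels of 0.77 in Control, 1.03 in AngII and 4.71 in AngII+QDG mice. The 12 that fell by at least 8-fold had median levels of 4.53, 4.53 and 0.61. AngII lay nearer to Control in all 21 of the former and in 11 of the 12. Over all transcripts tested the 3 medians were 2.21, 2.21 and 2.25. These levels are a description of transcripts chosen by the difference between Control and AngII+QDG mice, and AngII mice carry the same transcript list as Control mice.

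**Figure D3:**
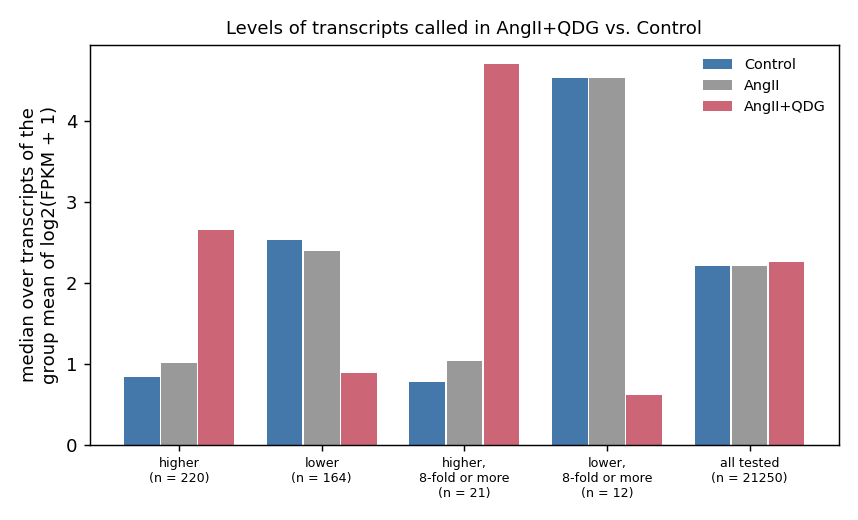
Median over transcripts of the group mean level (y axis, log2 of FPKM + 1) for the transcripts called in AngII+QDG vs. Control and for all tested, in Control (blue), AngII (grey) and AngII+QDG mice (red). For the 220 transcripts that rose the median is 0.84 in Control and 2.66 in AngII+QDG mice, for the 21 that rose by at least 8-fold it is 0.77 and 4.71, and the AngII bars (1.01 and 1.03) stand nearer to the Control bars.

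Some transcripts were near 0 in all mice of Control or of AngII+QDG and not in the other group. In 22 transcripts all Control mice were below 0.1 FPKM while all AngII+QDG mice had at least 1. In AngII+QDG mice their mean FPKM ran from 1.31 to 410, with a median of 3.14. All 5 AngII mice were below 0.1 FPKM in 14 of the 22, and in the other 8 they were mixed or in between. The reverse step was rarer at this limit of 0.1 FPKM, while a limit of 1 FPKM for the low group gave the 90 and 62 above. In 7 transcripts all AngII+QDG mice were below 0.1 FPKM and all Control mice had at least 1, with mean FPKM in Control mice from 2.10 to 4.12. ENSMUST00000044011 and ENSMUST00000140838, which fell from higher levels, are not among the 7, since they exceeded 0.1 FPKM in some or all AngII+QDG mice. All 5 AngII mice had at least 1 FPKM in 5 of the 7. These 22 and 7 transcripts were chosen by the difference itself and passed the filter through the group in which they were high, so their numbers are a description without a test.

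The transcripts that rose and fell made up a small part of the summed FPKM. As a share of the summed FPKM of the Ensembl transcripts of both lists, the 220 that rose took from 0.234% to 0.325% in Control mice and from 1.05% to 1.16% in AngII+QDG mice. The 164 that fell took from 0.470% to 0.680% in Control and from 0.120% to 0.157% in AngII+QDG mice. Both sets were chosen by the difference between these groups, so that their shares differ follows from the choice. In AngII mice the corresponding shares were 0.290% to 0.368% and 0.467% to 0.663%, and both overlapped with those of Control mice.

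Changed transcripts were found at every level of expression. Grouped by mean FPKM over the 10 mice, 62 rose and 53 fell of the 5649 transcripts below 2 (2.04% together), 107 rose and 73 fell of the 9916 from 2 to below 10 (1.82%), and 47 rose and 37 fell of the 5097 from 10 to below 100 (1.65%). Of the 588 transcripts at 100 or more, 4 rose and 1 fell (0.85%). A change itself enters the mean by which a transcript was grouped. The 4 that rose, ENSMUST00000151137 among them, did so by 1.15 to 8.52 on the log2 scale, and the transcript that fell had a log2 difference of -8.33.

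Mice of the same group resembled each other only a little more than mice of different groups. Across the 21250 transcripts, which are not independent replicates, Pearson's r between mice had a median of 0.866 over 10 pairs within Control (0.820 to 0.885), 0.866 over 10 pairs within AngII+QDG (0.824 to 0.879) and 0.845 over 25 pairs between them (0.814 to 0.864). The median SD of a transcript within a group was 0.36 on the log2 scale in both groups. The first principal component held 17.8% of the variance and mixed the groups. The second held 17.2% and placed the Control mice between -46.5 and -22.1 and the AngII+QDG mice between 7.38 and 66.1. Among the 21250 are the 90 transcripts that passed the filter through AngII+QDG mice alone and the 62 that passed through Control mice alone. Correlations and components were not computed without them, so how far they set the groups apart was not tested.

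**Figure D4:**
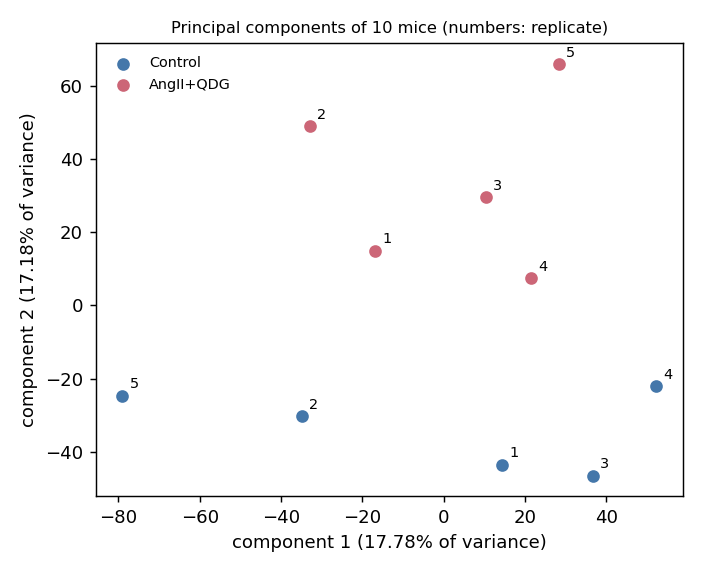
Each of the 10 mice by its first (x axis, 17.8% of the variance) and second (y axis, 17.2%) principal component of log2(FPKM + 1) over 21250 transcripts, numbered by replicate. Control mice (blue) lie below -22 on the second component and AngII+QDG mice (red) above 7, while both groups spread over the first. Transcripts that passed the filter through 1 group alone are included.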

How the data were processed

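Values of 10 mice, 5 Control and 5 AngII+QDG, were compared, and 5 AngII mice were shown beside them. Groups were taken from the sample labels, and mice were numbered 1 to 5 within a group in accession order. Per the methods, NGSQC was used to filter reads, HISAT2 to align them to the GRCm38/mm10 genome, and StringTie to assemble and quantify transcripts. For differential expression the methods name DESeq, a test for counts, and the submitters' processing notes name limma. The authors deposited FPKM per transcript, which are not counts, so no count test was run. The labels and the methods name different kits for the removal of rRNA.

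Ensembl transcripts of both lists that were at or above 1 FPKM in 5 or more of the 10 mice were fitted on log2(FPKM + 1) with limma 3.58.1 (lmFit, then eBayes with a trend; R 4.3.3), with a Benjamini-Hochberg adjustment over all transcripts tested. The fit was checked on simulated data. Library measures were tested with an exact permutation test over the 252 possible groupings (scipy 1.17.1). Relative depth was taken from the low values that a mouse and Control mouse 1 share. Because the mice are 5 per group and depth is unknown, precision rests on the spread between mice.

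The named transcripts are the 2 of each direction with the smallest p among those with a fold change of at least 2, an adjusted p below 0.05 and no overlap. The comparison, its filter and these lists were chosen with earlier results of these data known. Sums per gene, pathway and cell type lists and promoter motifs were planned and not run, since identifiers were not paired with genes here. The alternatives tried were a stricter filter, no filter, a pseudocount of 0.1, other scalings, all 3 groups in 1 fit, robust eBayes, transcripts above 0 in both groups, and leaving out each mouse.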

Additional observations from a re-analysis of the deposited data

Results flagged for a closer look

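Dixon's criterion for 5 values, a gap to the nearest mouse over 0.71 of the range, was applied to 30 sets of values and met in 5, against about 1.5 by chance.

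Ensembl transcripts of a single list held 0.246% of the summed FPKM in AngII+QDG mouse 2 and 0.0836% in Control mouse 2, each the highest of its group. These transcripts were not part of the comparison. ENSMUST00000048432 was 1.88 FPKM in AngII mouse 5, while the other AngII mice were at or below 0.00402. ENSMUST00000044011 was 0.578 FPKM in AngII+QDG mouse 1, above the other AngII+QDG mice and below every Control mouse. ENSMUST00000140838 was 14.9 FPKM in Control mouse 4, the lowest Control mouse and above every AngII+QDG mouse. Causes were not tested.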

How the results depend on the processing

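Of the alternatives, scaling by the sum over shared transcripts and the 10 fits on the transcripts of the 10-mouse filter were chosen after seeing the data. When each of the 10 mice had to reach 1 FPKM, 12624 transcripts were tested, 137 were higher and 98 lower by the fold change and unadjusted p, and 60 rose and 46 fell at the adjusted p. This filter removes every transcript near 0 in a group. With no filter, 103208 were tested and 246 rose and 170 fell, but only 272 of the 384 adjusted calls were kept. No other alternative on all 10 mice moved these 4 counts by more than 1.5 times, and scaling by the 75th percentile left 53.6% of the adjusted calls higher against 57.3%.

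When 1 mouse was left out and the filter was applied again to the remaining 9, from 341 to 473 transcripts were higher and from 249 to 356 lower by the fold change and unadjusted p, and from 79 to 202 rose and from 62 to 129 fell at the adjusted p. Without Control mouse 1, 2, 3, 4 or 5, the number that fell was 65, 84, 62, 76 and 86, against 164 with all mice. Without AngII+QDG mouse 1, 2, 3, 4 or 5, the number that rose was 105, 93, 79, 98 and 95, against 220. A transcript that passes through the 5 mice of 1 group alone no longer passes when any of them is left out. On the transcripts that passed with all 10 mice, the same fits gave from 433 to 482 higher and from 316 to 369 lower, and from 168 to 207 rose and from 117 to 149 fell. There, from 283 to 314 of the 384 adjusted calls were kept in a single fit, and 262 in all 10.

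The 4 named transcripts were chosen for their p and for not overlapping, so that their calls under the alternatives say nothing of stability. With a pseudocount of 0.1 their log2 differences were 11.37 (ENSMUST00000151137), 8.71 (ENSMUST00000048432), -7.99 (ENSMUST00000044011) and -5.28 (ENSMUST00000140838). No paired analysis was possible because the labels give the mice no numbers shared between groups. Single-transcript genes and sums per gene were not run, since transcripts were not paired with genes.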
